A study of Homo sapiens with 8 samples.

Results

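Major histocompatibility complex (MHC) class I antigen presentation was examined through 10 genes of the pathway, HLA-E, HLA-F, B2M, TAP1, TAP2, TAPBP, PSMB8, PSMB9, ERAP1 and NLRC5, out of 8961 genes measured on the same arrays. They were chosen by name for their place in the pathway, with earlier results of these data known. All 25 probe sets annotated with 1 of them alone were read. The cells were BOKU and SKG-I, 2 established human cervical cancer cell lines without a genetic change made for the study. Lipofection delivered either a control siRNA, siCtrl, or siIGF2R, which targets IGF2R, and the cells were collected 72 h later. Each line and siRNA gave 1 RNA sample, hybridized to 2 arrays, which makes 8 arrays of 4 RNA samples in 4 groups (BOKU with siCtrl, BOKU with siIGF2R, SKG-I with siCtrl and SKG-I with siIGF2R). The 2 cell lines were therefore the replicates, and the duplicate arrays show only the error of labeling and hybridization. Which siRNA sequence against IGF2R was used on the arrays is not given in the sources used here.

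Class I molecules show fragments of proteins made inside a cell to CD8 T cells and natural killer cells. The fragments are cut by the proteasome, carried into the endoplasmic reticulum by a transporter made of TAP1 and TAP2, trimmed there and loaded onto a heavy chain paired with the light chain, beta-2 microglobulin. Interferons are the best known inducers of the pathway, through interferon response elements in the promoters and through the transactivator NLRC5. In many carcinomas the pathway is lowered, which hides tumor cells from T cells. IGF2R, the receptor silenced here, carries newly made lysosomal enzymes from the Golgi and has no textbook place in class I presentation.

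By the brightest probe set of each gene, 6 of the 10 genes were higher on every siIGF2R array of both lines, against 26.4% of all genes. The promoter sequences of the genes are shown for this reason. Among the 6, TAP2 and NLRC5 reached 500, the minimum signal for a measured gene, only on siIGF2R arrays. These 2 could therefore be counted only if they were higher there. RefSeq windows on GRCh38.p14, from 250 bases before a transcript start to 50 bases from it, were given for 8 of the 10 genes (11 windows) and not for HLA-E and NLRC5. The core of the interferon response element, GAAA, any 2 bases and GAAA again, on either strand, was found in 7 of the 11 windows, each of a different gene, against 3.57% of 35116 such windows. Of the 8 genes, PSMB9 alone had no match within its window. The stretches below run from 160 bases before the start to 12 bases from it, on the strand of the gene, with the matches to the element in capitals. TAP1, TAP2, PSMB8 and PSMB9 are shown as the transporter and immunoproteasome genes, and B2M and TAPBP as genes that hold the element and differed little between the siRNAs or were lower.
TAP1, chr6:32853693-32853864, minus strand: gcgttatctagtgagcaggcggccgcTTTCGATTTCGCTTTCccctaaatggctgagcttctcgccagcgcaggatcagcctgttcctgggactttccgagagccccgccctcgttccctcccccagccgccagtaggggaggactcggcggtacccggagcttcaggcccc
TAP2, chr6:32838728-32838899, minus strand: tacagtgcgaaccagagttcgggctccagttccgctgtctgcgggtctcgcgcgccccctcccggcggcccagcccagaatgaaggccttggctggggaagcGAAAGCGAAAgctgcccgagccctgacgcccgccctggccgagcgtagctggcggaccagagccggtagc
PSMB8, chr6:32844036-32844207, minus strand: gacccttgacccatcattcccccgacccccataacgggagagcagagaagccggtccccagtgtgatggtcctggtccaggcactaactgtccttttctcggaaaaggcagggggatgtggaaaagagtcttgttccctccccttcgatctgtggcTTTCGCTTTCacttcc
PSMB9, chr6:32854032-32854203, plus strand: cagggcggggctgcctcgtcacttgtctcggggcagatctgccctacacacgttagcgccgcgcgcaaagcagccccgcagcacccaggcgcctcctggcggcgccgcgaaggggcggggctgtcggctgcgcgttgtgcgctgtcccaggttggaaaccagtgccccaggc
B2M, chr15:44711357-44711528, plus strand: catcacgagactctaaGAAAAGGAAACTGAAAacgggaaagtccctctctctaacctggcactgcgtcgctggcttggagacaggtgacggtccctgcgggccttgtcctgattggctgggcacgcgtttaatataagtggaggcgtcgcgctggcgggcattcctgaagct
TAPBP, chr6:33314067-33314238, minus strand: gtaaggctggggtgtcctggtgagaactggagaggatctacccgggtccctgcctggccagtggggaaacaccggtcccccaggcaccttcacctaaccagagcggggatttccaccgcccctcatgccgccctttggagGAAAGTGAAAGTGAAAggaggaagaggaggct

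In TAP1 the 2 matches overlapped and lay 134 to 119 bases before the start. In TAP2 the match lay 58 to 49 bases before the start, and in PSMB8 it crossed the start that is printed, the more downstream of its 2 RefSeq starts. TAP1 and PSMB9 are transcribed away from each other from starts 488 bases apart. The matches of TAP1 lie between these 2 starts, farther from the PSMB9 start than the 250 bases searched before it. The kappa B motif (GGG, any 2 bases, TTTCC) was found in TAP1, TAPBP and B2M (1.91% of all windows), the STAT element (TTC, any 3 bases, GAA) in TAP1 and PSMB8 (7.66%), the X2 box core TGACGC in TAP2 (9.14%) and the Y box CCAAT in 5 of the 8 genes (34.6%). The STAT match of TAP1 lay in the window of its other RefSeq start, which is not printed above. All of these are matches of letters in a fixed window, searched on both strands, and binding was not measured.

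The targeted gene was lowered in every sample labelled siIGF2R. The signal of IGF2R (probe set 201393_s_at) was 7288 and 6710.5 on the siCtrl arrays of BOKU and 641 and 645 on the siIGF2R arrays. In SKG-I it was 4119.6 and 3838 with siCtrl and 257 and 295 with siIGF2R. The knockdown was 10.9-fold in BOKU and 14.5-fold in SKG-I. Of the markers of other cell types, 0 of 5 immune and 0 of 4 endothelial genes reached a signal of 500 on any array. The summed signal of the immune genes ranged from 107 to 222 over the 8 arrays. The endothelial gene PECAM1 was just below 500 in BOKU, with 429 and 472 with siCtrl and 382 and 480 with siIGF2R. In SKG-I it had 103 and 86.0 with siCtrl and 215 and 168 with siIGF2R. The simple epithelial keratins KRT8, KRT18 and KRT19 were strong, with up to 18705 for KRT19, whereas the squamous keratins KRT5 and KRT14 stayed at 45.9 or less. In BOKU the epithelial genes CDH1 and EPCAM were at 50.8 or less as well. Of 6 fibroblast genes, COL1A1 reached 500 in both lines and COL3A1 only in SKG-I. The summed signal of the 6 was 7937 and 7961 in SKG-I with siCtrl and 5955 and 6165 with siIGF2R, and its part in the results was not tested.

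After IGF2R knockdown, TAP1 was higher in both lines, as was TAP2 by its brightest probe set. TAP1 and TAP2 together form the peptide transporter. A second measured probe set of TAP2 overlapped between the siRNAs in SKG-I. PSMB8, an immunoproteasome subunit, and NLRC5, the class I transactivator, were also higher on every siIGF2R array, but they missed the threshold of the test. HLA-E and HLA-F were more than 2-fold higher in SKG-I, while B2M and ERAP1, by their brightest probe sets, differed by less than 0.1 on the log2 scale in each line. Over both lines, limma called 2 of the 10 genes higher, against 2.59% of all 8961 genes, and 0 lower, against 2.35%, at an adjusted p below 0.05. At an unadjusted p below 0.05, 6 of the 10 were higher, against 14.4% of all genes, and 0 lower, against 13.9%. The median difference over the 10 genes was 0.36 in BOKU and 1.22 in SKG-I on the log2 scale, and over all genes it was 0.03 and -0.03. TAP2 and NLRC5 reached the minimum signal of 500 only on siIGF2R arrays, so that these 2 could enter the count only if they were higher there.

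**Figure D1:**
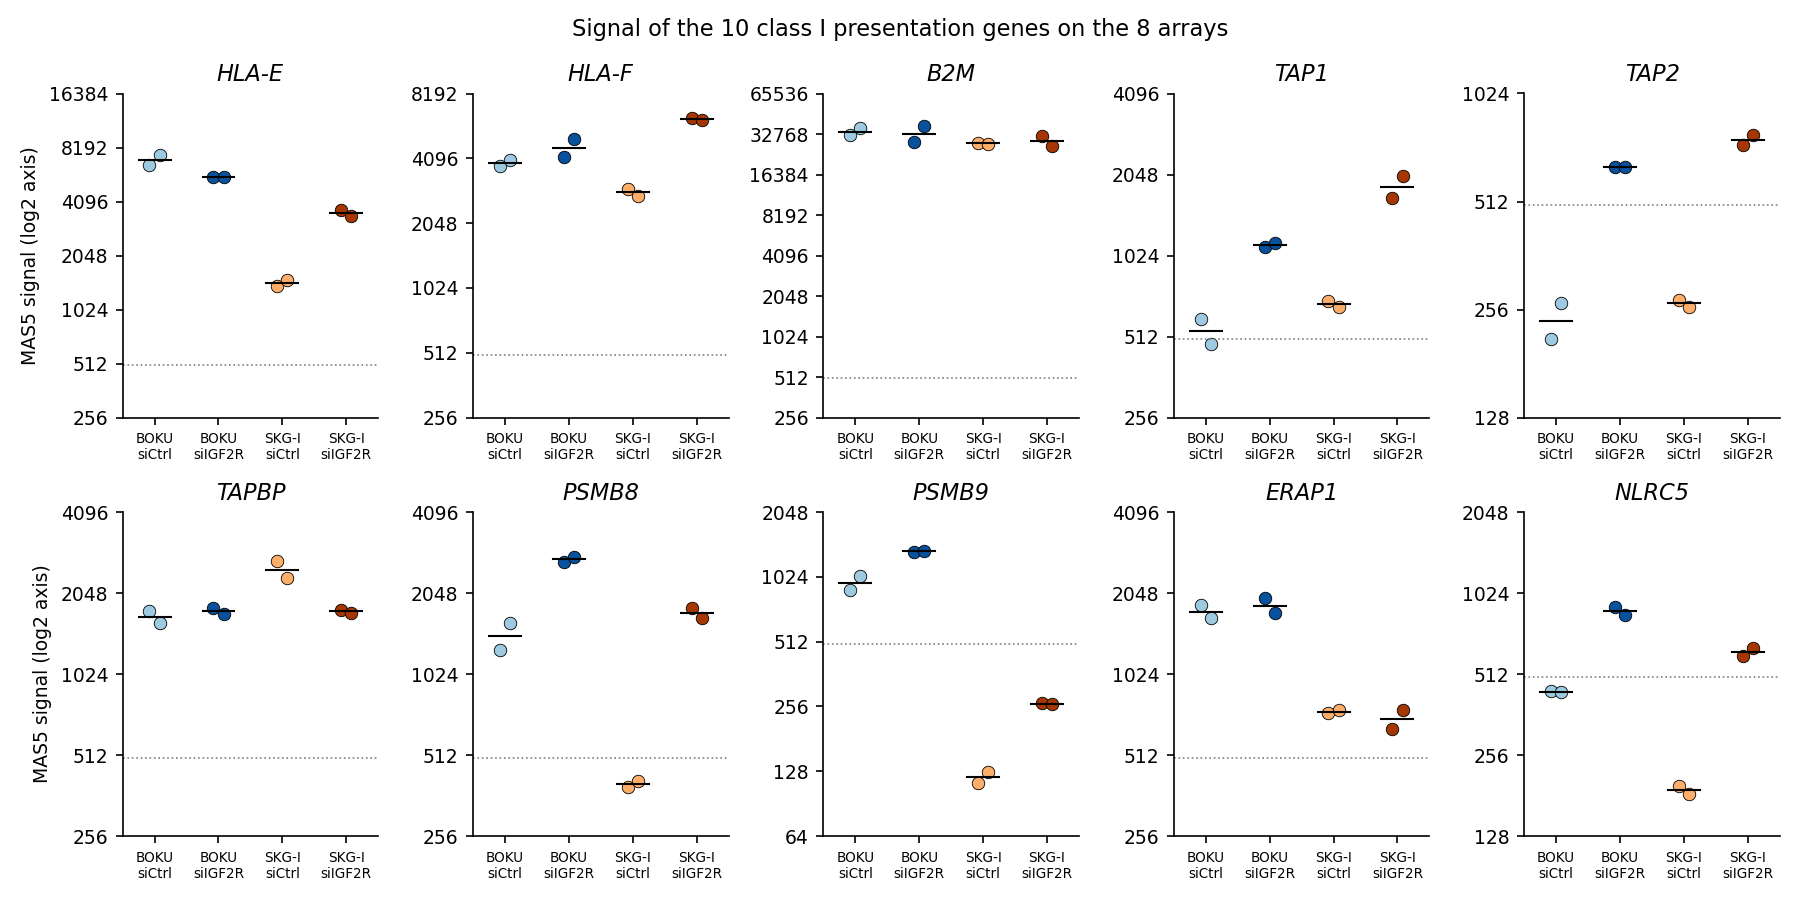
Signal of the probe set that represents each of the 10 genes on the 8 arrays. The y axis is the MAS5 signal on a log2 axis with its own range in each panel, points are arrays, bars are the mean of the 2 arrays of an RNA sample on the log scale, and the dotted line is a signal of 500. TAP1, TAP2, PSMB8, PSMB9, NLRC5 and HLA-F lie higher with siIGF2R on all arrays of both lines, whereas the points of B2M overlap.

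TAP1 encodes 1 of the 2 chains of the transporter that moves peptides from the cytosol into the endoplasmic reticulum. Its signal in BOKU was 597 and 481 with siCtrl and 1105 and 1137 with siIGF2R. In SKG-I it was 696 and 661 with siCtrl and 1678 and 2029 with siIGF2R. The siRNA groups did not overlap in either line. The log2 difference was 1.06 ± 0.16 in BOKU and 1.44 ± 0.14 in SKG-I (± the standard error from the duplicate arrays, 2 arrays per group). TAP1 rose by 1.25 ± 0.22 on the log2 scale over both lines (limma, ± SE, n = 2 lines, adjusted p = 0.0434). Without the second BOKU siCtrl array the adjusted p was 0.0630.

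TAP2 encodes the other chain of the transporter. The probe set 225973_at had signals of 212 and 267 in BOKU with siCtrl and 641 and 638 with siIGF2R. In SKG-I it had 272 and 261 with siCtrl and 736 and 783 with siIGF2R. The increase was of similar size in the lines, 1.43 ± 0.17 in BOKU and 1.51 ± 0.05 in SKG-I, with no overlap between the siRNA groups. Over both lines TAP2 rose by 1.47 ± 0.26 (limma, adjusted p = 0.0434). The probe set reached 500 only on siIGF2R arrays, so it could be counted only if it was higher there. The adjusted p was 0.0517 without the second BOKU siCtrl array and 0.0515 without the first BOKU siIGF2R array.

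A second measured probe set of TAP2 gave another picture. The signals of 204769_s_at were 339 and 429 in BOKU with siCtrl, 566 and 653 with siIGF2R, 199 and 236 in SKG-I with siCtrl and 205 and 191 with siIGF2R. It was higher in BOKU by 0.67 and overlapped between the siRNAs in SKG-I (log2 difference -0.13, limma adjusted p over both lines 0.640). This probe set reached 500 only on the siIGF2R arrays of BOKU. With the mean of both probe sets the difference of TAP2 was 0.87 and no longer called (adjusted p = 0.144). The other 2 probe sets of the gene stayed at 89.5 or less on every array.

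TAPBP encodes tapasin, which holds the transporter and the empty class I molecule together. Its signal was 1754 and 1587 in BOKU with siCtrl and 1805 and 1719 with siIGF2R. In SKG-I it was 2697 and 2321 with siCtrl and 1776 and 1725 with siIGF2R. The siRNA groups overlapped in BOKU and were apart in SKG-I, where TAPBP was 1.43-fold lower with siIGF2R. The difference over both lines was -0.22 ± 0.22 (limma, adjusted p = 0.564). A dimmer probe set, 1555565_s_at, was lower on all siIGF2R arrays of both lines, by -0.33 in BOKU and, in SKG-I, by -0.63 (limma, adjusted p = 0.314). It reached 500 on 1 array only, of BOKU with siCtrl.

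PSMB8 encodes an inducible catalytic subunit of the immunoproteasome, a form of the proteasome that favors cuts fitting class I grooves. Its signal was 1263 and 1587 in BOKU with siCtrl and 2666 and 2799 with siIGF2R. In SKG-I it was 389 and 411 with siCtrl and 1799.9 and 1649 with siIGF2R. The difference was 0.95 ± 0.17 in BOKU and 2.11 ± 0.07 in SKG-I, a 4.31-fold higher signal and the largest of the 10 genes in that line. Over both lines it was 1.53 ± 0.31 and just missed the threshold (limma, adjusted p = 0.0554). It passed without the first BOKU siCtrl array (adjusted p = 0.0244), the second BOKU siIGF2R array (0.0228), the second SKG-I siCtrl array (0.0480) or the second SKG-I siIGF2R array (0.0444).

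PSMB9, the partner subunit whose start faces that of TAP1, had signals of 894 and 1036 in BOKU with siCtrl and 1329 and 1356 with siIGF2R. In SKG-I they were 113 and 126 with siCtrl and 265 and 262 with siIGF2R. The siRNA groups were apart in both lines, by 0.48 ± 0.11 in BOKU and 1.14 ± 0.08 in SKG-I. The difference over both lines, 0.81 ± 0.28, did not pass (limma, adjusted p = 0.147). All SKG-I signals of PSMB9 were below 500, and it entered the analysis through BOKU.

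NLRC5 is the transactivator that drives class I genes as CIITA drives class II genes. Its signal was 441 and 439 in BOKU with siCtrl and 911 and 850.2 with siIGF2R. In SKG-I it was 197 and 183 with siCtrl and 599.5 and 641 with siIGF2R. NLRC5 thus reached 500 only on siIGF2R arrays, so it could be counted only if it was higher there. Duplicate arrays lay close together and the siRNA groups far apart, with a difference of 1.0 ± 0.05 in BOKU and 1.71 ± 0.07 in SKG-I. The difference over both lines was 1.35 ± 0.29 and missed the threshold (limma, adjusted p = 0.0604). It passed without the first BOKU siCtrl array (adjusted p = 0.0293) or the second BOKU siIGF2R array (0.0308).

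HLA-E encodes a heavy chain of low variability that presents leader peptides of other class I chains to natural killer cell receptors. Its brightest probe set, 200905_x_at, had signals of 6583 and 7440.2 in BOKU with siCtrl and 5631 and 5602 with siIGF2R. In SKG-I the signals were 1392 and 1489.9 with siCtrl and 3671 and 3409.6 with siIGF2R. With siIGF2R both arrays were thus lower in BOKU and higher in SKG-I, by -0.32 ± 0.09 and 1.30 ± 0.07. Each of the 3 probe sets of HLA-E was higher on both siIGF2R arrays of SKG-I, by 1.30 to 1.44. In BOKU they disagreed, since 217456_x_at overlapped between the siRNAs (-0.14) and 200904_at was higher (0.20). The gene was not called over both lines (0.49 ± 0.37, limma adjusted p = 0.438).

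HLA-F, another heavy chain of low variability, had signals of 3767 and 4006 in BOKU with siCtrl and 4146 and 5011 with siIGF2R (221875_x_at). In SKG-I they were 2962 and 2740.2 with siCtrl and 6286 and 6182 with siIGF2R. The difference was small in BOKU (0.23 ± 0.14) and more than 2-fold in SKG-I (1.13 ± 0.06). The second measured probe set gave 0.24 and 1.29. Over both lines HLA-F was at 0.68 ± 0.25 and not called (limma, adjusted p = 0.154). Probe sets whose names end in _x_at hold probes that also match other sequences, and heavy chain genes are alike, so that signal can be shared between them.

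B2M encodes the light chain common to all classical class I molecules, and its signal was strong on every array. It was 32353 and 36142 in BOKU with siCtrl, 28639.9 and 37262 with siIGF2R, 28100.2 and 27766 in SKG-I with siCtrl and 31639 and 26579 with siIGF2R (201891_s_at). The siRNA groups overlapped in both lines, with differences of -0.07 ± 0.21 and 0.05 ± 0.13, and a second probe set gave -0.10 and 0.05. Over both lines the difference was -0.01 ± 0.10 (limma, adjusted p = 0.977). Another, dim probe set, 232311_at, behaved otherwise. Its signal was 230.4 and 263 in BOKU with siCtrl, 336 and 458 with siIGF2R, 78.9 and 89.5 in SKG-I with siCtrl and 410.2 and 335 with siIGF2R. It stayed below 500 on every array and was not tested.

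ERAP1 is the aminopeptidase that trims peptides in the endoplasmic reticulum. Its signal was 1843 and 1649.9 in BOKU with siCtrl, 1957 and 1724 with siIGF2R, 735 and 749.7 in SKG-I with siCtrl and 642 and 754 with siIGF2R. The groups overlapped in both lines (0.07 ± 0.12 and -0.09 ± 0.12), and the difference over both lines was -0.01 ± 0.20 (limma, adjusted p = 0.984). A dimmer probe set, 209701_at, overlapped in BOKU (-0.01) and was higher on both siIGF2R arrays of SKG-I (0.25, limma adjusted p over both lines 0.794).

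**Figure D2:**
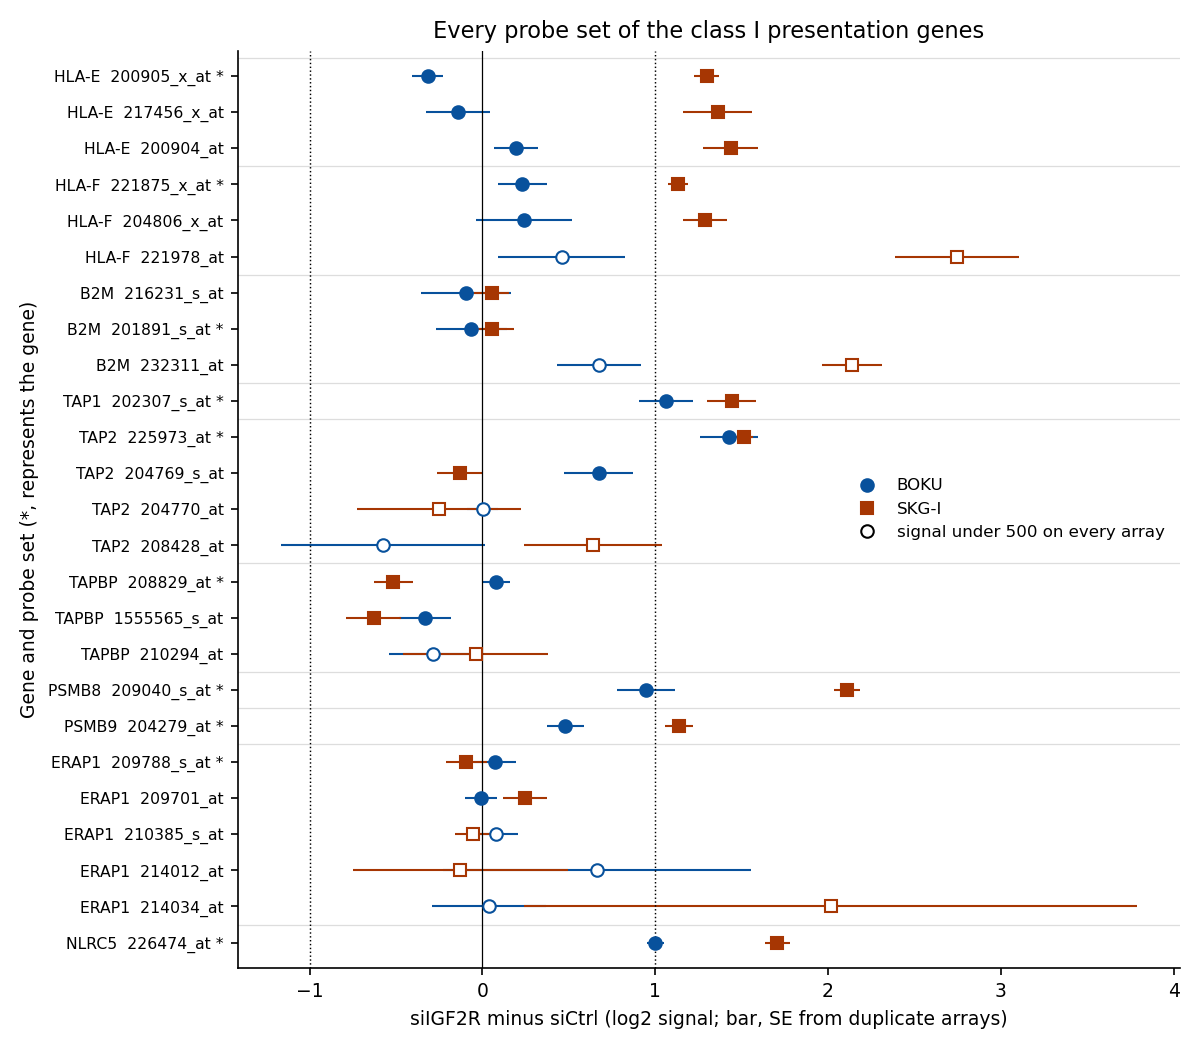
Difference between siIGF2R and siCtrl for all 25 probe sets of the 10 genes. The x axis is the log2 difference with its standard error from duplicate arrays, circles are BOKU, squares are SKG-I, open symbols are probe sets below 500 on every array, stars mark the probe set that represents the gene and dotted lines mark 2-fold. The probe sets of TAP2 and of B2M disagree among themselves, and those of HLA-E agree in SKG-I only.

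Of the 25 probe sets, 17 reached 500 on at least 1 array and 8 did not. Just inside the minimum were 1555565_s_at of TAPBP, with 505 as its highest signal, and 209701_at of ERAP1, with 529.8. Just outside were 210385_s_at of ERAP1, with 468, and 232311_at of B2M, with 458. The dim probe set 221978_at of HLA-F had 89.8 and 57.9 in BOKU with siCtrl, 113 and 87.1 with siIGF2R, 41.5 and 25.9 in SKG-I with siCtrl and 238 and 204 with siIGF2R.

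The lines were then set side by side. At least 2-fold higher with siIGF2R were 3 of the 10 genes in BOKU, namely TAP1, TAP2 and NLRC5, against 7.95% of all genes, and 7 in SKG-I, against 8.21%. The 7 were these 3 with PSMB8, PSMB9, HLA-E and HLA-F. TAP1, TAP2 and NLRC5 were past 2-fold in both lines, against 3.14% of all genes, but TAP2 and NLRC5 had entered through siIGF2R arrays only, and with a minimum signal of 1000 the count was 1. NLRC5 in BOKU stood at the limit of 2-fold. None of the 10 genes was 2-fold lower in BOKU (4.98% of all genes), in SKG-I (6.33%) or in both lines (2.31%). In BOKU 8 of 10 genes were above 0, all except HLA-E and B2M, against 4648 of all 8961 genes. In SKG-I 8 were, all except TAPBP and ERAP1, against 4317. With 1 RNA sample per line and siRNA, these counts and the difference between the lines in response were not tested.

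**Figure D3:**
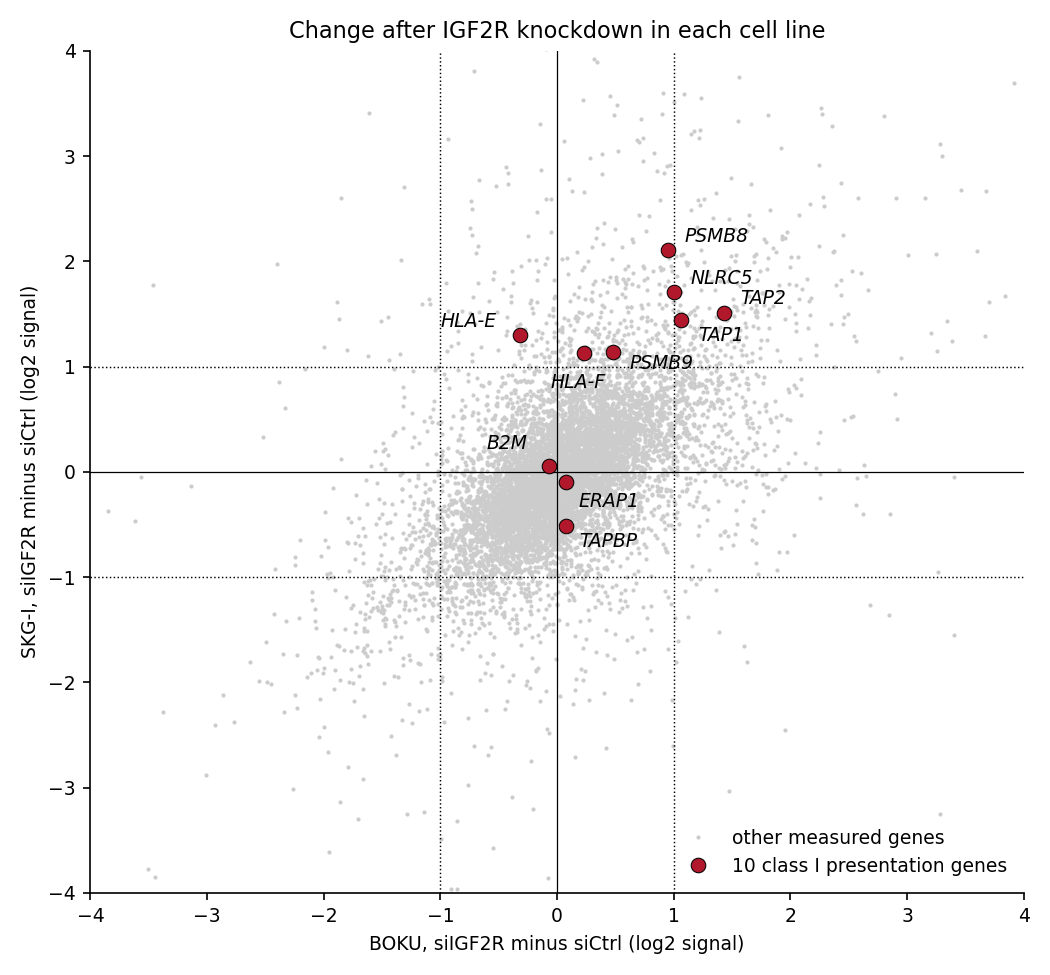
Difference between siIGF2R and siCtrl in BOKU (x axis) and SKG-I (y axis), both as log2 signal, for the 10 genes in red and the other measured genes in grey. Dotted lines mark 2-fold, and 20 genes lie beyond the axis limits of 4. TAP1, TAP2 and NLRC5 lie at 1 or more in both lines, PSMB8, HLA-E, HLA-F and PSMB9 above 1 in SKG-I only, and B2M, ERAP1 and TAPBP near or below the center.

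With siCtrl alone, the pathway was at different levels in the lines. PSMB9 was 8.04-fold higher in BOKU than in SKG-I, HLA-E 4.86-fold, PSMB8 3.54-fold, ERAP1 2.35-fold and NLRC5 2.32-fold. These 5 genes were past 2-fold toward BOKU, against 15.6% of all genes, and 0 of 10 toward SKG-I, against 18.9%, so that 5 were 2-fold apart, against 34.5%. HLA-F (0.45 on the log2 scale, BOKU minus SKG-I), B2M (0.29), TAP2 (-0.16), TAP1 (-0.34) and TAPBP (-0.59) lay between. For TAP2 the difference between the lines was within its standard error from duplicate arrays (0.17), and its signals overlapped. The median over the 10 genes was 0.83, and over all genes -0.08.

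With siIGF2R the distance between the lines was smaller for HLA-E, PSMB8, NLRC5, PSMB9, B2M and TAPBP. How often this held over all genes was not counted. The distance went from 2.28 to 0.67 for HLA-E, from 1.82 to 0.66 for PSMB8, from 1.21 to 0.51 for NLRC5 and from 3.01 to 2.35 for PSMB9. HLA-F was higher in BOKU with siCtrl (0.45) and higher in SKG-I with siIGF2R (-0.45). TAP1 and TAP2 went the other way, from -0.34 to -0.72 and from -0.16 to -0.25. ERAP1 also lay farther apart, going from 1.23 to 1.40. These are values of 1 RNA sample per line and siRNA, with no test.

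**Figure D4:**
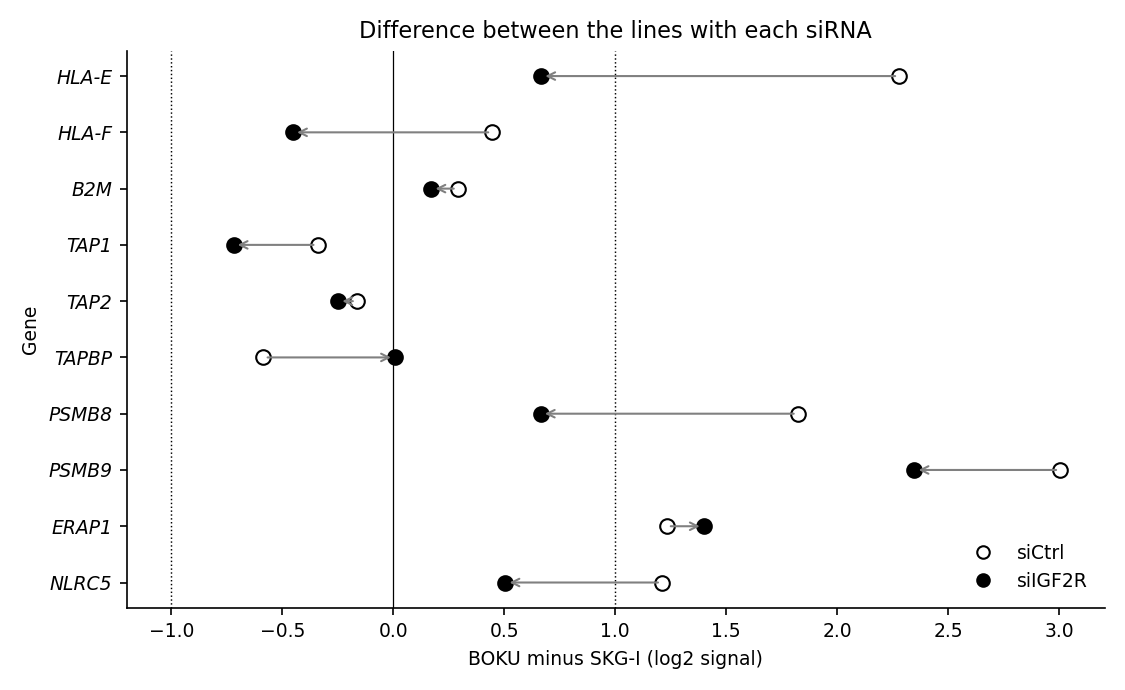
Signal in BOKU minus SKG-I, as log2 signal on the x axis, for each of the 10 genes with siCtrl (open circles) and with siIGF2R (filled circles). Arrows run from siCtrl to siIGF2R and dotted lines mark 2-fold. The arrows of HLA-E, PSMB8, PSMB9 and NLRC5 point from above 1 toward 0, and PSMB9 and ERAP1 stay above 1.

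Around these genes, 7 further lists of pathway genes were read. Of the heavy chains and relatives, 9 of 15 genes were measured, and 0 were called higher and 1 lower by the probe set that represents the gene, against 2.59% and 2.35% of all genes. The lower 1 was HFE, a class I relative that regulates iron uptake rather than presenting peptides. Its signal was 742 and 817 in BOKU with siCtrl, 379 and 281 with siIGF2R, 1421 and 1535 in SKG-I with siCtrl and 605 and 689 with siIGF2R. HFE fell by 1.22 ± 0.22 on the log2 scale (limma, adjusted p = 0.0438), and its adjusted p was 0.0560 without the second BOKU siCtrl array. The other 4 measured probe sets of HFE were lower as well, by -0.96 to -1.45, and were not called (limma, adjusted p of 0.0673 to 0.199). These 4 reached 500 only on siCtrl arrays of SKG-I, so they could be counted only if they were higher there.

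The classical heavy chains HLA-B and HLA-C, with HLA-G, had the opposite sign. HLA-B had 11527 and 11583 in BOKU with siCtrl, 12549.8 and 17022 with siIGF2R, 6236 and 5546 in SKG-I with siCtrl and 13421 and 12307 with siIGF2R. It was thus 2.19-fold higher in SKG-I, as were HLA-G (2.25-fold) and MICB (2.11-fold), a ligand of the activating receptor NKG2D, and these were the 3 of 9 past 2-fold there, against 8.21% of all genes. HLA-C was 1.95-fold higher. The differences over both lines were 0.73 for HLA-B, 0.61 for HLA-C and 0.77 for HLA-G, with adjusted p values from limma of 0.0966, 0.116 and 0.103. The other probe sets of these genes had the same sign, and 1 of them, of HLA-B, passed the threshold (1.06 ± 0.20, limma adjusted p = 0.0496).

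Of the peptide loading and quality control genes of the endoplasmic reticulum, 10 of 10 were measured and limma called 0, with 0 higher and 2 lower at an unadjusted p below 0.05, against 14.4% and 13.9% of all genes. CALR, the chaperone calreticulin of the loading complex, had 9311 and 8443 in BOKU with siCtrl, 4568 and 4597 with siIGF2R, 8238 and 7996 in SKG-I with siCtrl and 4834 and 5453 with siIGF2R. Its groups were far apart in both lines, with a difference of -0.81 ± 0.16 that just missed the threshold (adjusted p = 0.0517). TAPBPL, a relative of tapasin that edits bound peptides, was lower on all siIGF2R arrays too (-0.61 in BOKU, -0.81 in SKG-I, limma adjusted p = 0.168). It reached 500 only on siCtrl arrays of BOKU. GANAB and P4HB, a glucosidase and a disulfide isomerase, stood at -0.26 and -0.21 (adjusted p = 0.461 and 0.331). The median of the list was -0.05 in BOKU, and in SKG-I it was -0.16.

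Of the other proteasome genes, 8 of 9 were measured and limma called 0, with 0 higher and 1 lower at an unadjusted p below 0.05, near the 13.9% of all genes that were lower. The constitutive subunits PSMB5, PSMB6 and PSMB7 are replaced in the immunoproteasome. PSMB7 was lower on all siIGF2R arrays (-0.62 in BOKU, -0.42 in SKG-I, limma adjusted p = 0.0748) and so was PSMB6 (-0.29 and -0.31, adjusted p = 0.224). PSMB5, the counterpart of PSMB8, was higher on all of them (0.32 in both lines, adjusted p = 0.210). PSMB10, a further subunit of the immunoproteasome, did not rise as PSMB8 and PSMB9 did. Its difference was -0.17 in BOKU and 0.17 in SKG-I (limma, adjusted p over both lines 0.996). The medians of the list were -0.18 and -0.06.

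Of the transcription factors of class I genes, 10 of 17 were measured and limma called 0, with 1 higher and 0 lower at an unadjusted p below 0.05, no more than the 14.4% and 13.9% of all genes. The higher 1 was IRF9, the DNA-binding part of the complex that type I interferon activates. IRF9 had 826 and 818 in BOKU with siCtrl, 1156 and 1194 with siIGF2R, 1351 and 1207 in SKG-I with siCtrl and 4369 and 4489 with siIGF2R. The siRNA groups did not overlap, and the difference was 0.52 in BOKU and 1.79 in SKG-I (over both lines 1.15 ± 0.33, adjusted p = 0.0976). RFXAP, a part of the factor that binds the X box, was 2.05-fold lower in SKG-I and overlapped in BOKU (limma, adjusted p = 0.487). It reached 500 on 1 array only, of SKG-I with siCtrl, and so was counted through the group where it was high. RFXANK, a partner of RFXAP, stood at -0.31 and NFYB, of the same list, at 0.43, with adjusted p values from limma of 0.352 and 0.246. The 2 other measured probe sets of NFYB gave 0.20 and 0.17 over both lines and overlapped between the siRNAs in BOKU.

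Of the interferon receptors and signaling genes, 9 of 10 were measured and limma called 0, with 2 higher and 0 lower at an unadjusted p below 0.05, against 14.4% and 13.9% of all genes. SOCS3, a feedback inhibitor of JAK kinases, had 271 and 214 in BOKU with siCtrl, 564 and 556 with siIGF2R, 194 and 150.3 in SKG-I with siCtrl and 398 and 488 with siIGF2R. It was the 1 gene of the list past 2-fold in both lines (1.22 and 1.37, adjusted p = 0.0694), and it reached 500 only on siIGF2R arrays. The kinase JAK1 was higher on all siIGF2R arrays (0.55 and 0.76, adjusted p = 0.0729), as was the receptor chain IFNAR1 (0.36 and 0.61, adjusted p = 0.214). SOCS1, the other feedback inhibitor, was lower on all of them (-0.71 and -0.40, limma adjusted p = 0.416). It reached 500 only on siCtrl arrays of BOKU.

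Of the genes that limit or steer recognition of the presenting cell, 5 of 6 were measured, 1 was called higher and 0 lower, against 2.59% and 2.35% of all genes. CD274, which encodes the T cell inhibitor PD-L1, had 644 and 649.5 in BOKU with siCtrl, 1179 and 1323 with siIGF2R, 871 and 878 in SKG-I with siCtrl and 2232 and 2163 with siIGF2R. The groups were well apart, by 0.95 ± 0.08 in BOKU and 1.33 ± 0.02 in SKG-I. CD274 rose by 1.14 ± 0.21 over both lines (limma, adjusted p = 0.0484). The adjusted p was 0.0569 without the second BOKU siCtrl array, 0.0503 without the first SKG-I siCtrl array and 0.0509 without the first SKG-I siIGF2R array.

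The second ligand of PD-1, PDCD1LG2, had 415 and 385 in BOKU with siCtrl, 516 and 497 with siIGF2R, 4.01 and 7.55 in SKG-I with siCtrl and 74.8 and 89.3 with siIGF2R. It reached 500 on 1 array only, of BOKU with siIGF2R, and was near the bottom of the scale in SKG-I (limma, adjusted p = 0.242). PVR, a ligand of the receptors TIGIT and DNAM-1, was 2.15-fold lower in BOKU and 1.19-fold lower in SKG-I (adjusted p = 0.176). All 6 measured probe sets of PVR were lower in BOKU, but in SKG-I they ranged from -0.26 to 0.29. NECTIN2, of the same family, was higher by 0.23 and 0.49 (adjusted p = 0.310), and its 3 other measured probe sets overlapped between the siRNAs in SKG-I. Of the 6 genes of class II presentation none reached 500 on any array, and the highest signal was 307 for HLA-DMA.

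**Figure D5:**
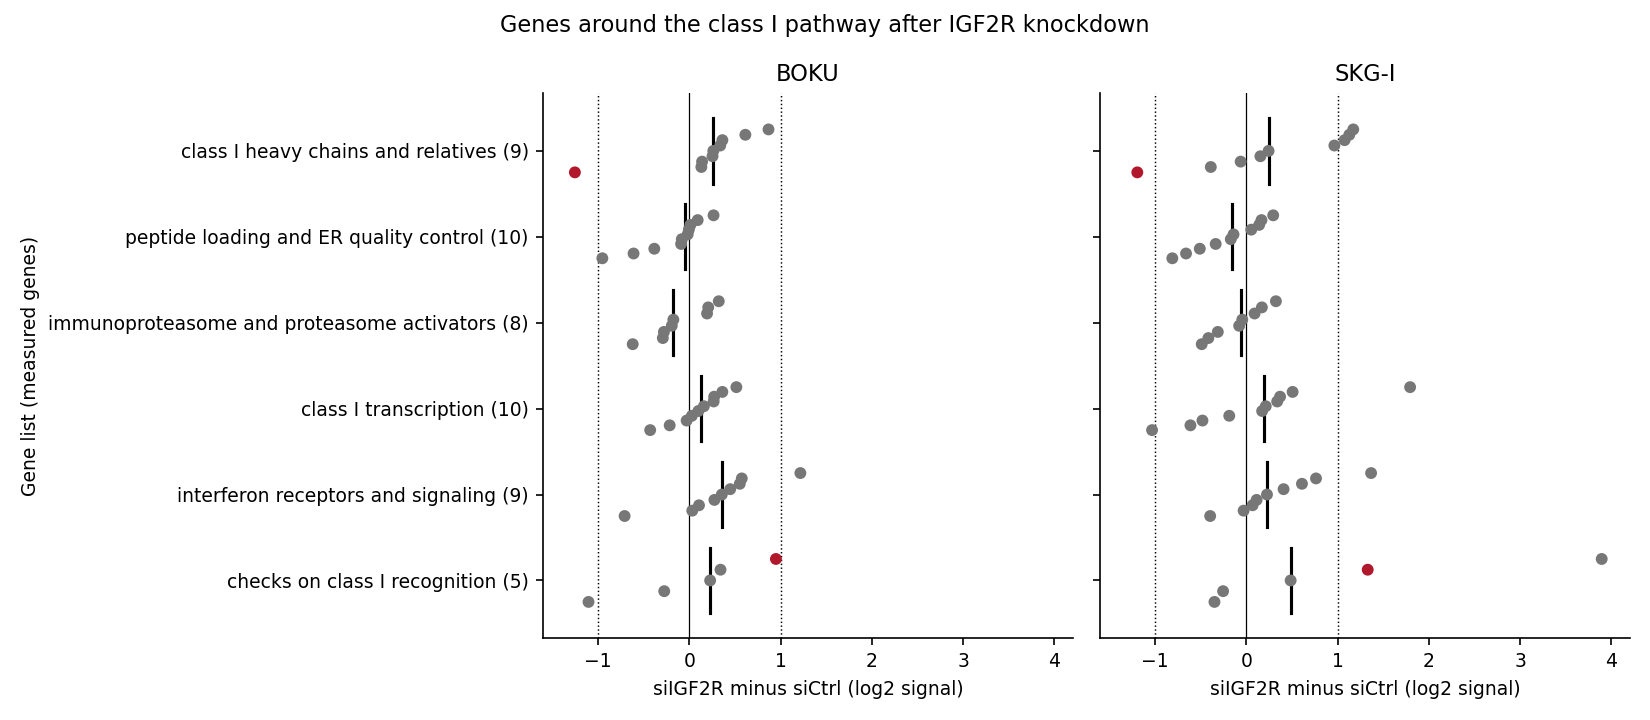
Difference between siIGF2R and siCtrl, as log2 signal on the x axis, for the measured genes of the 6 lists that had any, in BOKU (left) and SKG-I (right). Points are genes, red points are called by limma, vertical bars are list medians and dotted lines mark 2-fold. The red points are HFE at the left of the first list and CD274 in the last.

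All values are shares of a bulk RNA sample, in which fewer cells and less RNA per cell cannot be told apart. They are mRNA signals, and protein or surface class I was not measured on these arrays.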

How the data were processed

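RNA of 4 samples was measured on 8 Affymetrix GeneChip arrays. The values deposited by the authors are MAS5 signals, linear intensities of 54675 probe sets. The methods state a mean of 1000, while the deposited signals have a 2% trimmed mean of 499.9 on every array. No further normalization was made. Signals were put on a log2 scale, duplicate arrays of an RNA sample were averaged, 62 controls were dropped, and 16517 probe sets (30.2%) whose highest signal was at least 500 were kept. Gene names came from the platform annotation. Of the kept probe sets, 14544 had 1 gene, 765 several and 1208 none. The kept probe set with the highest mean log2 signal stood for its gene.

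siIGF2R and siCtrl were compared in R 4.3.3 with limma 3.58.1, two-sided, with the cell line as a block and a trend of the variance, and p values were adjusted by Benjamini-Hochberg over all kept probe sets. There was 1 residual degree of freedom, and limma's prior added 4.82. Differences within a line or between lines rest on 1 RNA sample per group and are descriptions. Log2 signals of duplicate arrays differed with an SD of 0.27 to 0.35, and the number of RNA samples and lines limits the precision. Same-numbered arrays of different groups did not deviate together (correlations of -0.006 to 0.126).

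The genes and lists were chosen with earlier results of these data known. The text names the 10 genes and up to 4 genes of each list, first those called and then those with the largest mean difference. MICB, PSMB10, IRF1, IRF2, HLA-DMA and the marker genes were named after their values were seen. Alternatives covered filter, normalization, low values, variance model, block, unit of replication, probe set choice, fold threshold, the methods' t-test and leaving out each array. Scaling to a mean of 1000 was added after the values had been seen.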

Additional observations from a re-analysis of the deposited data

Results flagged for a closer look

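Among the probe sets of the 10 genes, and those that represent the other genes named by the rule, 1 of HLA-E and 1 of PSME4 went in opposite directions in the 2 lines on every array. For HLA-E (200905_x_at) the difference between siIGF2R and siCtrl was 1.61 larger in SKG-I than in BOKU on the log2 scale, with both siIGF2R arrays lower in BOKU and higher in SKG-I. The other probe sets of HLA-E did not show this, since 217456_x_at overlapped in BOKU and 200904_at was higher in both lines.

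PSME4, which encodes a nuclear activator of the proteasome, had 1589 and 1699 in BOKU with siCtrl, 1827 and 1936 with siIGF2R, 2492 and 2254 in SKG-I with siCtrl and 1667 and 1711 with siIGF2R. Its difference was 0.19 in BOKU and -0.49 in SKG-I, which makes -0.68 for SKG-I minus BOKU. Its other measured probe set overlapped between the siRNAs in BOKU (0.12) and was lower in SKG-I (-0.20). With 1 RNA sample per line and siRNA, neither difference between the lines was tested. The duplicate arrays, 2 per group, are too few to look for outlying arrays.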

How the results depend on the processing

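The count of the 10 genes called higher, 2 as reported, was sensitive to the processing. It was 1 with a minimum signal of 250, 0 with 1000 (8 genes left), 0 with quantile normalization, 4 with a constant of 64 added, 0 without the variance trend, 0 without the cell line as a block, 0 with all probe sets of a gene averaged and 1 with only probe sets named _at without a further letter (6 genes left). With no filter it was 3, PSMB8 being called as well (adjusted p = 0.0459). With the arrays as separate samples it was 6, and 6 with a replicate block for the array number, which only the number links. Leaving out 1 array gave 0 to 4, with 0 without the second BOKU siCtrl array, 1 without the first BOKU siIGF2R array and 4 without the first BOKU siCtrl or the second BOKU siIGF2R array. Genes 2-fold higher in both lines, and those in BOKU, went from 3 to 1 with a minimum of 1000, with quantile normalization, with a constant of 64 and with the methods' t-test after Benjamini-Hochberg adjustment, but stayed at 3 with that test at its own threshold. With only _at probe sets, 4 genes were 2-fold higher in SKG-I and 3 were 2-fold apart between the lines with siCtrl. Under the alternatives run, TAP1 was called in 16 of 23, TAP2 in 17 of 23, PSMB8 in 8 of 23, NLRC5 in 5 of 23, HFE in 17 of 24 and CD274 in 13 of 24. Each of these 6 kept its direction in all of them. Only B2M and ERAP1 had differences on both sides of 0, within -0.10 to 0.12. Without the variance trend no probe set was called, with 3865 at an unadjusted p below 0.05. Except where the settings themselves remove genes or samples, the cause was not tested. With 4 RNA samples, a p above the threshold does not show that a gene did not differ.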

Other observations

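IRF1, a factor that binds interferon response elements of class I genes, stayed just below the minimum signal and was not tested. Its signal was 372 and 326 in BOKU with siCtrl, 448 and 499 with siIGF2R, 203 and 147 in SKG-I with siCtrl and 268 and 227 with siIGF2R. The siIGF2R arrays were higher than the siCtrl arrays in both lines, by 0.44 and 0.52 on the log2 scale. IRF2, of the same list and with 494 as its highest signal, went the other way. It was lower on all siIGF2R arrays, by -0.49 in BOKU and -0.59 in SKG-I, and was not tested either. HLA-DMA, an editor of class II peptides, had the highest signal of its list, with 182 and 151 in BOKU with siCtrl, 245 and 307 with siIGF2R, 63.6 and 78.1 in SKG-I with siCtrl and 27.1 and 35.3 with siIGF2R. It was higher with siIGF2R in BOKU and lower in SKG-I, at signals where single arrays vary most on a log scale.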
